A study of Mus musculus with 8 samples.

Results

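The insulin-like growth factor (IGF) system of brain endothelial cells was described by 10 genes, taken by symbol from the 24394 symbols shared by all 8 expression tables. They comprise the ligands Igf1 and Igf2, the receptors Igf1r, Insr and Igf2r, and the binding proteins Igfbp2, Igfbp3, Igfbp4, Igfbp5 and Igfbp7. All 10 symbols were listed in every library. IGF1 and IGF2 are secreted peptides that activate the tyrosine kinases encoded by Igf1r and Insr, which signal through PI3K, AKT and MAP kinases, whereas the product of Igf2r takes up IGF2 and delivers it to lysosomes. The IGFBP proteins hold the ligands outside the cell and can either limit or prolong their action. IGFBP7 binds IGFs weakly and is known as a matrix protein of blood vessels.

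Mice of the YT-ECKO group carried the VE-cadherin-CreERT2 driver and floxed Yap and Taz alleles, and they were set against wild-type mice (WT). Each group had 4 libraries of sorted brain endothelial cells from C57BL/6J mice at postnatal day 8. CreERT2 is a form of Cre recombinase that acts after tamoxifen, and the VE-cadherin promoter directs it to endothelium. The genes deleted are Yap1 and Wwtr1 (the gene of Taz), which encode transcriptional co-activators of the Hippo pathway, and the question was which endothelial transcripts differ without them. No Cre or floxed allele is labelled for WT, so the driver, the floxed alleles and the deletion cannot be told apart. Nothing states whether a library came from 1 mouse or a pool, so the spread behind the p-values is that between these samples and may be technical.

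Values are given as scaled reads, the deposited log2 values returned to the linear scale. Each library summed to 10.31 to 10.96 M scaled reads, and the spacing of low values implied 6.71 to 16.8 M reads per library. Wwtr1 had 348, 2608, 1261 and 1124 scaled reads in YT-ECKO libraries 1 to 4, against 8220, 5906, 6756 and 5650 scaled reads in WT libraries 1 to 4. It fell by 2.45 ± 0.41 (log2, SE; limma adjusted p = 0.0113), a call that 12 of the 26 alternatives did not give. Yap1 averaged 327 ± 248 scaled reads in YT-ECKO and 1964 ± 613 in WT (SD, n = 4 each), and all 4 YT-ECKO libraries were below all 4 WT libraries, with a limma adjusted p of 0.175. The 12 endothelial markers summed to 10804 to 13859 CPM (scaled reads brought to the same total in every library) in YT-ECKO and 10364 to 12219 CPM in WT, led by the junction genes Esam and Cldn5. The brain endothelial transporters Slco1c1, Mfsd2a and Slc2a1 were above 0 in all 8 libraries, and for no summed marker list did the difference between the groups pass the threshold (exact permutation tests, lowest adjusted p = 0.6 over 9 lists). The most abundant genes of other lists were Rgs5 and Abcc9 (mural cells), Foxc1 and Mgp (fibroblasts and meninges), Gja1 and Slc1a2 (astrocytes), Rbfox3 and Stmn2 (neurons), Cnp and Mbp (oligodendrocyte lineage), Enpp2 and Ttr (choroid plexus), and the globin genes Hba-a1 and Hba-a2 (erythroid cells).

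None of the IGF genes that could be tested passed the test between YT-ECKO and WT, and the groups overlapped for each of them. Of the 10, 9 reached the minimum for testing, which was 10 or more scaled reads in 4 or more libraries, and Igfbp5 did not. Limma on log2(scaled reads + 128), with Benjamini-Hochberg adjustment over 8706 genes and a threshold of 0.05, called 0 of the 9. In bulk RNA, fewer cells of a kind and less RNA per cell cannot be told apart, and this holds for every level given here. Over all tested genes 0.0345% were called, namely the 3 genes Wwtr1, Camk2d and Bgn, all of which fell in YT-ECKO. At an unadjusted p under 0.05, 0 of the 9 passed, beside 5.47% of all tested genes. The groups overlapped for all 9, beside 3.4% of all tested genes whose groups did not overlap. The fitted difference was above 0 for 5 of the 9 and below 0 for 4, with a median of 0.16, beside a median of -0.09 for all tested genes. Those 9 reached the minimum by their own values, so their counts do not stand for all 10. Voom, a count-based alternative from limma run on rebuilt reads, also called 0 of them.

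**Figure D1:**
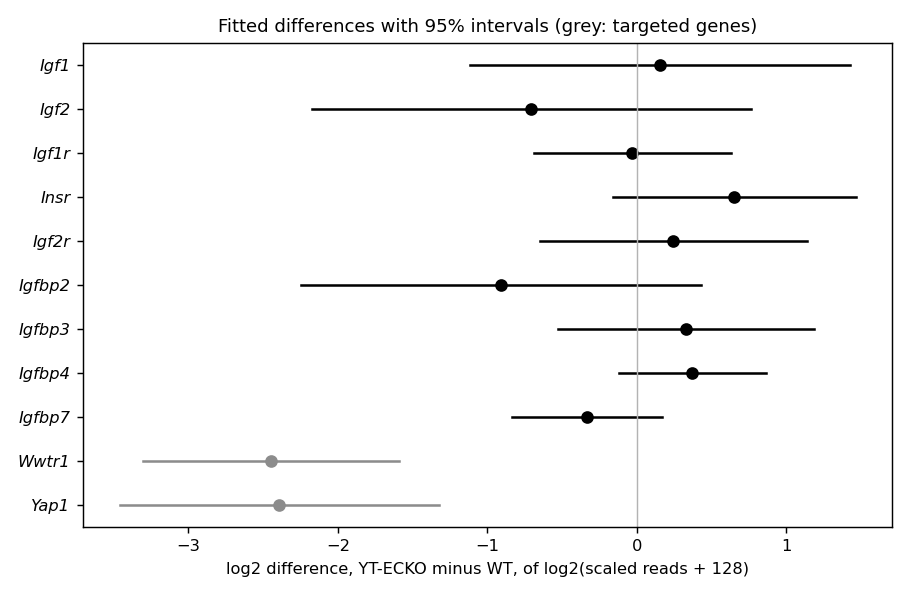
Fitted log2 difference, YT-ECKO minus WT, of log2(scaled reads + 128) on the x axis for the 9 tested IGF genes (black) and the targeted genes Wwtr1 and Yap1 (grey); points are estimates and lines are 95% intervals from limma. The intervals of all 9 IGF genes include 0, and those of Wwtr1 and Yap1 do not.

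The ligand Igf1, a growth factor made largely in liver and by several brain cell types, was detected in 4 of 8 libraries. It had 0, 284, 498 and 0 scaled reads in YT-ECKO libraries 1 to 4, against 206, 0, 371 and 0 scaled reads in WT libraries 1 to 4. These were 2 libraries of each group, and the groups overlapped. The limit set by 3 reads lay between 1.84 scaled reads in WT 1 and 4.63 in YT-ECKO 1, far below the 4 values that were detected. Its fitted difference of 0.16 ± 0.62 (log2, SE) had a 95% interval of -1.12 to 1.43, and the limma adjusted p was 0.994.

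Igf2, the fetal growth factor of the imprinted cluster it shares with H19, varied most among the genes detected in every library. YT-ECKO libraries 1 to 4 had 55.5, 1540, 373 and 1241 scaled reads of Igf2, against 1154, 211, 1580 and 1874 in WT libraries 1 to 4. The highest library was 33.8 times the lowest, both groups held high and low libraries, and the groups overlapped. The mean was 802 ± 702 in YT-ECKO and 1205 ± 726 in WT (SD, n = 4 each), a fitted log2 difference of -0.71 with a 95% interval of -2.17 to 0.76 (limma adjusted p = 0.990). Without WT 2 the difference was -1.27, and without YT-ECKO 1 it was -0.078.

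With the summed microglia and macrophage markers as a covariate, the Igf2 difference was 0.19, opposite in sign, and its adjusted p stayed above the threshold. Of the 12 markers on that list 5 were at 0 in all 8 libraries, namely P2ry12, Tmem119, Itgam, Trem2 and C1qa. Of the rest, all but a single gene were above 0 in at most 2 libraries. The sum was 0.145 to 30.9 CPM in YT-ECKO and 15.0 to 95.4 CPM in WT. It therefore rests largely on that gene, and the part of such cells in the Igf2 level was not tested. Fibroblast and meningeal markers, of a tissue known to make Igf2, summed to 127 to 245 CPM in YT-ECKO and 161 to 270 CPM in WT. Lum, Slc6a13, Aldh1a2 and Slc22a6 were at 0 in all 8 libraries. Foxc1 and Mgp, with means of 1266 and 778 scaled reads, made up most of the sum. Col3a1 came next with a mean of 110, Col1a2 was above 0 in 2 libraries, and Dcn, Pdgfra and Ogn in 1 each. The sum therefore mainly follows Foxc1 and Mgp. With this sum as a covariate the Igf2 difference was -0.79, of the same sign as without it.

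Igf2 is read from several promoters, 4 of which RefSeq lists, and it is on the reverse strand of chromosome 7. RefSeq promoter windows (GRCm38.p6, 250 bases before to 50 bases after the start) were listed for 9 of the 10 genes, all but Insr. There were 13 such windows in all. They were searched on both strands for GGAATG, the 6 letters of the core motif of TEAD factors, the DNA-binding partners of YAP and TAZ. The letters occurred in 4 of the 13 windows, which were 3 of the 4 Igf2 windows and that of Igfbp5. Among all 32851 mouse promoter windows of the same length 14.7% held them. The promoter nearest the gene's end (promoter 4) had the motif as GGAATG and the other windows in its reverse complement CATTCC. The sequences below show where these letters stand, in capitals, in the windows of the 2 genes, all on the reverse strand: whole for the Igf2 window with 2 matches, and the match with 15 bases on either side for the others.
Igf2 promoter 2, chr7:142661222-142661521, matches 218 and 112 bases before the start: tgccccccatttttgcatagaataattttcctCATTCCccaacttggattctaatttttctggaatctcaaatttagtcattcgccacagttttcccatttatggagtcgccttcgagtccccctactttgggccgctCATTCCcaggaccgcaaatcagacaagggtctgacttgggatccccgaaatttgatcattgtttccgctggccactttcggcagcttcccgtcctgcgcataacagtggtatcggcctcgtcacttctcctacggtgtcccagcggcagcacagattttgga
Igf2 promoter 3, chr7:142658964-142658999, match 180 bases before the start: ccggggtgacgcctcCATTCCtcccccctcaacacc
Igf2 promoter 4, chr7:142657639-142657674, match 163 bases before the start: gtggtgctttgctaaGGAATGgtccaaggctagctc
Igfbp5 promoter, chr1:72875078-72875113, match 233 bases before the start: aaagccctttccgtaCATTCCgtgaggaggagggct
These matches are letters in a window and not measured binding. Igf2 and Igfbp5, the genes with matches, were the member with the widest spread among those detected throughout and the member detected in fewest libraries. Whether matches go with either trait was not tested. The Igf2 difference did not pass the test, and Igfbp5 was not tested.

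Among the receptors, Igf1r, the main kinase for both IGFs, had group means that were nearly equal but a wider spread in YT-ECKO. It had 3124, 7033, 5861 and 3268 scaled reads in YT-ECKO libraries 1 to 4, against 5138, 3679, 5221 and 4679 scaled reads in WT libraries 1 to 4. The 2 highest and the 2 lowest of the 8 libraries were all YT-ECKO, with the WT libraries between them. The fitted log2 difference was -0.03 ± 0.32 (SE), with a 95% interval of -0.69 to 0.63, which corresponds to 0.62 to 1.55 times the WT level (limma adjusted p = 0.998).

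Insr, the insulin receptor, had the smallest limma p of the 9 tested genes without passing the test. By the exact permutation test its p was 0.114, above the 0.0571 of Igfbp4. It had 2094, 1758, 1697 and 3150 scaled reads in YT-ECKO libraries 1 to 4, against 1157, 801, 2044 and 1461 in WT libraries 1 to 4. Of the 4 WT libraries 3 lay below the lowest YT-ECKO library, and WT 3 lay within the YT-ECKO range. The mean was 2175 ± 673 scaled reads in YT-ECKO and 1366 ± 526 in WT (SD, n = 4 each). The fitted log2 difference was 0.65 ± 0.39 (SE), with a 95% interval of -0.16 to 1.46, an unadjusted p of 0.111 and a limma adjusted p of 0.972, the 997th smallest of the 8706.

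Igf2r, the scavenging receptor for IGF2, had 1332, 1014, 925 and 1080 scaled reads in YT-ECKO libraries 1 to 4, against 536, 967, 1441 and 815 in WT libraries 1 to 4. The WT libraries ranged more widely than the YT-ECKO libraries and enclosed all of them. Its fitted log2 difference was 0.25, with a 95% interval of -0.65 to 1.14 (limma adjusted p = 0.991), and it was 0.039 without WT 1 and 0.45 without WT 3. Airn, the antisense transcript that overlaps Igf2r, was above 0 only in YT-ECKO 1, YT-ECKO 4 and WT 3. No source used here says whether the counting used strand, so reads of both transcripts cannot be told apart.

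The balance of the 2 kinase receptors was described by the log2 ratio of Igf1r to Insr, each in scaled reads per kb of exon. The ratio was 0.29, 1.71, 1.50 and -0.24 in YT-ECKO libraries 1 to 4, against 1.86, 1.91, 1.06 and 1.39 in WT libraries 1 to 4. Per kb, Igf1r exceeded Insr in all 4 WT libraries and in 3 of 4 YT-ECKO libraries, with means of 0.82 ± 0.94 in YT-ECKO and 1.56 ± 0.40 in WT (SD, n = 4 each). The groups overlapped, and the ratio was chosen after its genes had been seen, so it was given no test. Without division by exon length, YT-ECKO 4 had 3268 scaled reads of Igf1r and 3150 of Insr, so the sign there depends on that scale.

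**Figure D2:**
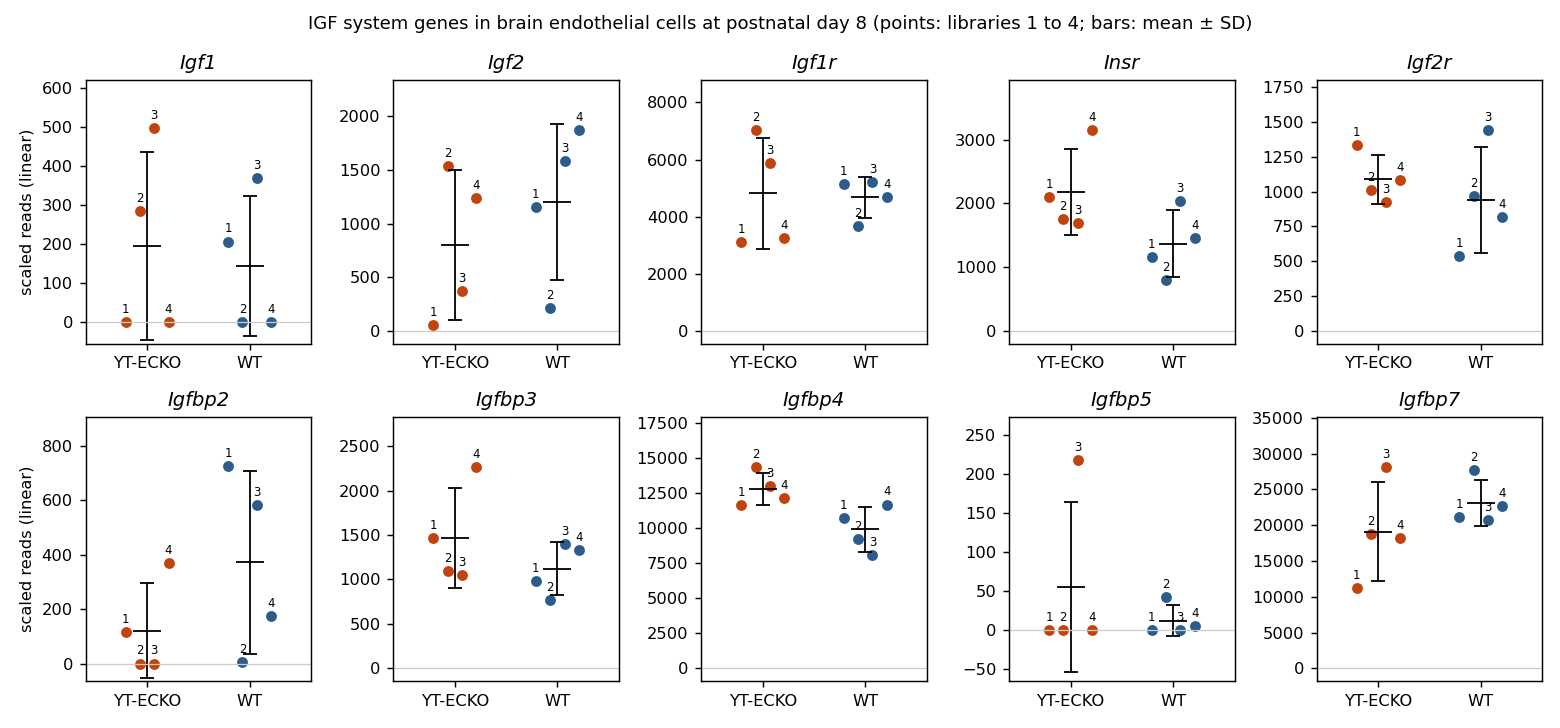
Scaled reads on a linear y axis for each of the 10 genes in YT-ECKO (left, red) and WT (right, blue) libraries; each point is 1 library with its replicate number, and the horizontal line and bars are the mean ± SD of 4. The groups overlap in all 10 panels, most narrowly for Igfbp4, where YT-ECKO 1 had 11674 and WT 4 had 11698 scaled reads.

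Of the binding proteins, Igfbp4, which inhibits IGF action until proteases cleave it, came closest to separate groups. It had 11674, 14352, 13025 and 12161 scaled reads in YT-ECKO libraries 1 to 4, against 10750, 9204, 8068 and 11698 in WT libraries 1 to 4. A single pair of libraries crossed, YT-ECKO 1 just below WT 4, and they no longer crossed once values were rescaled to equal library totals or by median ratios. The mean was 12803 ± 1174 scaled reads in YT-ECKO and 9930 ± 1612 in WT (SD, n = 4 each). By an exact permutation test, two-sided, the difference did not pass (p = 0.0571, where 4 against 4 cannot go below 0.0286). The fitted log2 difference was 0.37 ± 0.24 (SE), with a 95% interval of -0.12 to 0.86 and a limma adjusted p of 0.980. Scaling by upper quartiles gave a difference of 0.16.

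The RefSeq promoter window of Igfbp4 was the only one of the 13 with the letters TATAAA, the TATA box, searched on the gene's strand. They began 28 bases before the start, and 8.32% of all promoter windows held them. The window is shown because Igfbp4 was the gene with the narrowest spread, its highest library being 1.78 times its lowest, and it lies on the forward strand, with the TATA letters in capitals.
Igfbp4 promoter, chr11:99040994-99041293: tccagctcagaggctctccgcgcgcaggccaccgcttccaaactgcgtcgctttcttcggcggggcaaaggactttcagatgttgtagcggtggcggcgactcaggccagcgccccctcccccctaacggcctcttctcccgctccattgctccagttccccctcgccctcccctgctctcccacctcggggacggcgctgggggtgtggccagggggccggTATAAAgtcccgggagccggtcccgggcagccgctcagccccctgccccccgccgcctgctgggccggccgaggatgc
The window was otherwise rich in G and C, which made up 71.3% of its bases.

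Igfbp7, the vascular matrix member, was the most abundant of the 10 per kb of exon. YT-ECKO libraries 1 to 4 had 11284, 18833, 28095 and 18167 scaled reads of Igfbp7, against 21145, 27708, 20753 and 22741 in WT libraries 1 to 4. Apart from YT-ECKO 3, which held the highest value of all, the YT-ECKO libraries were lower than every WT library. The mean was 19095 ± 6902 scaled reads in YT-ECKO and 23086 ± 3199 in WT (SD, n = 4 each), a fitted log2 difference of -0.33 ± 0.24 (SE) with a 95% interval of -0.84 to 0.17 (limma adjusted p = 0.981). Without YT-ECKO 1 the difference was -0.11, and without YT-ECKO 3 it was -0.54. Polr2b, a subunit gene of RNA polymerase, overlaps Igfbp7 on the opposite strand.

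The window at the start of Igfbp7 held neither motif. It is shown for comparison with that of Igfbp4, on the reverse strand and in lower case throughout.
Igfbp7 promoter, chr5:77407996-77408295: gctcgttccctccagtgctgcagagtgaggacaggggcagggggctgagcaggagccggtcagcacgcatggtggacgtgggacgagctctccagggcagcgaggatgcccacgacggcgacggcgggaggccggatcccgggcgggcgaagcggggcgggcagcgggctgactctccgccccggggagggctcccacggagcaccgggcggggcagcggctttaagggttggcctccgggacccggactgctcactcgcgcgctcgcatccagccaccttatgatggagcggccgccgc
G and C made up 73.3% of it, close to the share in the Igfbp4 window.

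Igfbp3, the main carrier of IGFs in blood, had 1462, 1098, 1051 and 2261 scaled reads in YT-ECKO libraries 1 to 4, against 985, 764, 1401 and 1334 in WT libraries 1 to 4. YT-ECKO 4 stood highest and WT 2 lowest, with the other 6 libraries intermixed. The fitted log2 difference was 0.33, with a 95% interval of -0.53 to 1.18 (limma adjusted p = 0.990), and it was 0.11 without YT-ECKO 4.

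Igfbp2, a binding protein of fetal tissue and glia, was detected in fewer YT-ECKO than WT libraries. It had 114, 0, 0 and 369 scaled reads in YT-ECKO libraries 1 to 4, against 724, 5.8, 580 and 176 scaled reads in WT libraries 1 to 4. It was above 0 in 2 of 4 YT-ECKO and all 4 WT libraries, although WT 2 held only 4 implied reads. The mean was 121 ± 174 scaled reads in YT-ECKO and 371 ± 336 in WT (SD, n = 4 each), and the log2 difference of -0.91 ± 0.65 (SE) gave a limma adjusted p of 0.981. Over the alternatives the difference lay between -4.71 and 0.78, with -1.43 without WT 2 and -0.54 without WT 1. WT 1 and WT 3, where it was highest, also had the highest summed choroid plexus markers (995 and 598 CPM), led by Enpp2 and Ttr. The other 6 had 192 to 515 CPM. Next highest among them were YT-ECKO 2 (515 CPM) and YT-ECKO 3 (492 CPM), the libraries with Igfbp2 at 0. Enpp2 had 2101 to 5492 scaled reads over all 8 libraries. Ttr was highest in WT 1 (4692 scaled reads), but in WT 3 (1006) it was below YT-ECKO 3 (1451) and YT-ECKO 4 (1035). Folr1 and Kl of that list were at 0 in all 8 libraries, and the part of such cells in the Igfbp2 level was not tested.

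Igfbp5, the neighbour of Igfbp2 on chromosome 1, was scarcely detected. It had 0, 0, 218 and 0 scaled reads in YT-ECKO libraries 1 to 4, against 0, 41.5, 0 and 5.0 in WT libraries 1 to 4. These values stand for 285 implied reads in YT-ECKO 3, 29 in WT 2 and 5 in WT 4. With 1 detected library in YT-ECKO and 2 in WT, no level could be compared.

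Levels were compared between the genes per kb of exon (GENCODE M21), a scale that assumes reads from the whole transcript. The protocols name a Lexogen Quant-Seq kit, but no source used here states which part of a transcript its reads cover. Reads taken only from transcript ends would make this scale understate long genes such as Igf1r and Insr. Without division by exon length, the mean of Igf1r (4821 scaled reads in YT-ECKO, 4679 in WT) was above that of Igfbp3 (1468 and 1121). In WT, Insr (1366) was then above Igf2 (1205). These pairs stand the other way round per kb, so the order rests on that assumption. Igfbp7 led with 15794 ± 5709 scaled reads per kb in YT-ECKO and 19096 ± 2646 in WT (SD, n = 4 each), 14th in YT-ECKO and 13th in WT of the 8397 tested genes with an exon length. Igfbp4 came next with 2899 ± 266 scaled reads per kb in YT-ECKO and 2249 ± 365 in WT, rank 134 in YT-ECKO and 197 in WT.

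Both stood apart from the next gene in each group, since their lowest library was above the highest library of the gene that followed. Igfbp3 (469 ± 179 per kb in YT-ECKO and 358 ± 95.8 in WT) and Igf1r (287 ± 115 per kb in YT-ECKO and 279 ± 42.2 in WT) followed. Their library ranges overlapped in both groups, so their order is not settled. Below them, the order in WT was Igf2, Igfbp2, Igf2r and Insr, with means of 211, 201, 101 and 99.4 scaled reads per kb, and each neighbouring pair overlapped. In YT-ECKO the same 4 were ordered Insr, Igf2, Igf2r and Igfbp2, with 158, 140, 117 and 65.4 scaled reads per kb, again overlapping from one to the next. Igf1 and Igfbp5 were last in both groups.

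**Figure D3:**
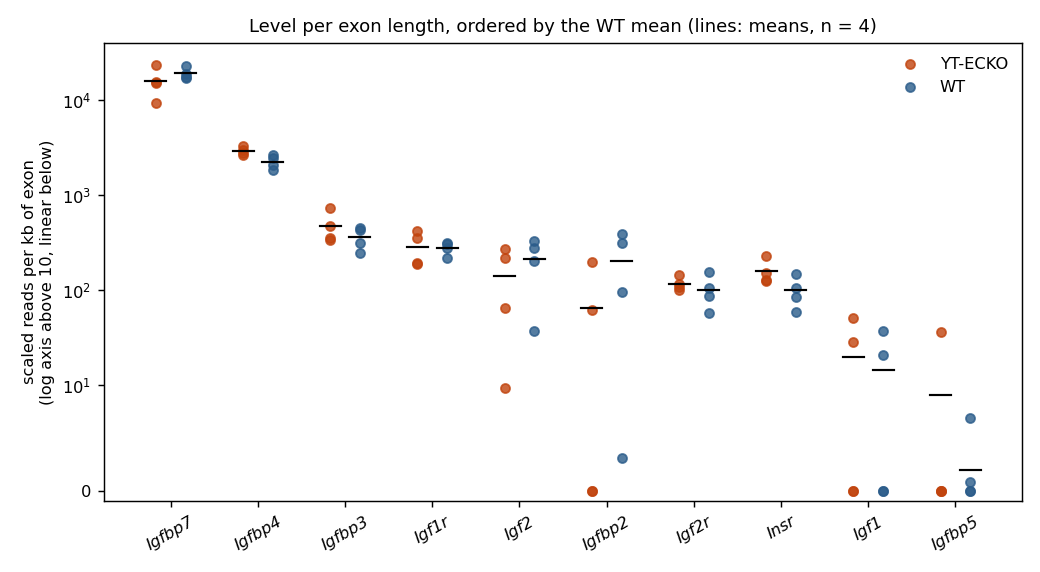
Scaled reads per kb of exon (y axis, logarithmic above 10 and linear below) for the 10 genes, ordered by their WT mean; points are the 4 YT-ECKO (red, left) and 4 WT (blue, right) libraries and short lines are means. Igfbp7 and Igfbp4 stand above the rest in both groups, and the genes from Igfbp3 to Insr overlap their neighbours.

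The gene positions are those of GENCODE M21 on GRCm38. Igf2 (positions 142650766 to 142666816, reverse strand) and Igf1r (67952827 to 68233668, forward strand) are both on chromosome 7. Igfbp2 (72824503 to 72852474, forward strand) and Igfbp5 (72857932 to 72874884, reverse strand) lie side by side on chromosome 1, and Igfbp3 (7206086 to 7213923, reverse strand) and Igfbp4 (99041244 to 99054392, forward strand) are both on chromosome 11. Igf1 is on chromosome 10 (87858265 to 87937042, forward strand), Insr on chromosome 8 (3122061 to 3279617, reverse strand), Igf2r on chromosome 17 (12682406 to 12769664, reverse strand) and Igfbp7 on chromosome 5 (77349240 to 77408041, reverse strand). Transcripts of other genes overlap Igf1, Igf2, Insr, Igf2r and Igfbp7 in the annotation. Those at Igf1 and Insr were not listed in the expression tables. Overlap was taken over whole genes rather than exons, and its effect on the counts was not tested.

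The share of Rn45s, a ribosomal RNA precursor, varied without a clear break between libraries. They were split at the median share of each group into a lower and a higher set of 4. The share was 8.37% to 11.7% in YT-ECKO 2, YT-ECKO 3, WT 1 and WT 3, which were also the 4 deepest libraries (12.1 to 16.8 M implied reads). It was 13.0% to 14.7% in YT-ECKO 1, YT-ECKO 4, WT 2 and WT 4 (6.71 to 11.02 M implied reads). Share and depth coincide and cannot be told apart, and the labels name no batch. Igf1 was above 0 in exactly the 4 libraries of the lower share. The split was chosen from the data, and over all tested genes 1 passed the threshold for a difference between the sets, which was none of the 10.

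Several of the 10 gave opposite differences in the sets. Igf1r differed by 0.30 ± 0.30 (log2, SE) within the libraries of lower Rn45s share and by -0.36 ± 0.37 within those of higher share. The groups did not overlap in either set, but with 2 libraries against 2 this was so for 35.0% of all tested genes in the lower and 33.3% in the higher set. Igfbp7 differed by 0.13 within the lower share and by -0.80 within the higher share. Igfbp2 differed by -2.60 ± 0.69 within the lower share, where both YT-ECKO libraries were at 0 and the size depends on the pseudocount, and by 0.78 ± 0.89 within the higher share.

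Insr differed in the same direction in both sets, by 0.15 within the lower and 1.15 within the higher share, and so did Igfbp4, by 0.55 within the lower and 0.20 within the higher share. The change of the difference between the sets was tested as an interaction in limma. It had an unadjusted p of 0.00677 for Igfbp2 (adjusted p = 0.843), 0.0254 for Igfbp7 (adjusted p = 0.935) and 0.184 for Igf1r (adjusted p = 0.969), and 0 of all tested genes were called, with 424 at an unadjusted p under 0.05. With 2 libraries of each group in a set, these are values of the libraries rather than stable effects.

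**Figure D4:**
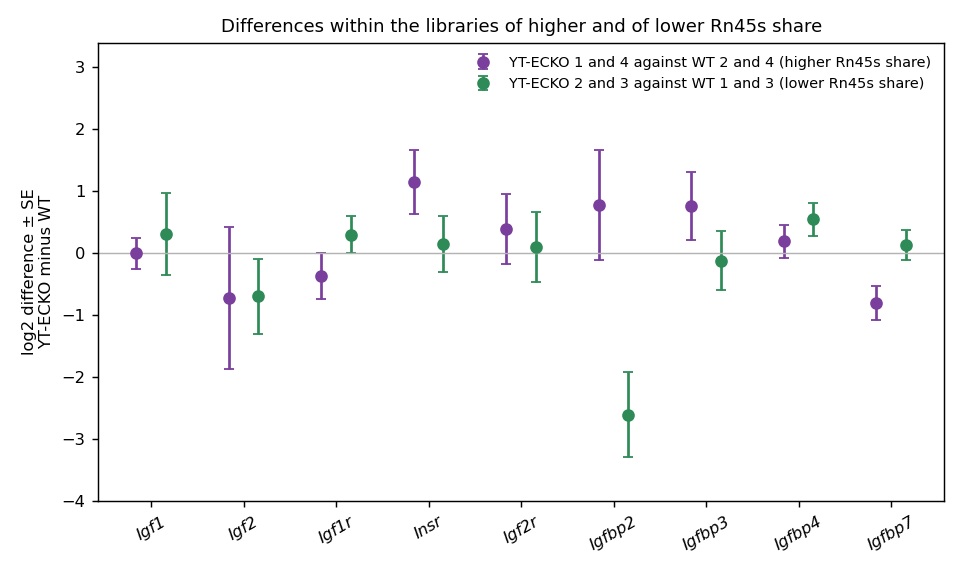
Log2 difference, YT-ECKO minus WT, of log2(scaled reads + 128) (y axis, ± SE from limma) for the 9 tested genes, within the 4 libraries of higher Rn45s share (purple) and the 4 of lower Rn45s share (green). Igf1r, Igfbp2, Igfbp3 and Igfbp7 lie on opposite sides of 0 in the sets, Igf1 is at 0 in the set of higher share, and the others lie on the same side.

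The genes most like the most abundant member and the member with the smallest p were sought among 1934 tested genes whose mean was 1000 scaled reads or more. Over the 8 libraries Igfbp7 was most like Ctnnb1, the gene of beta-catenin (r = 0.954), Atp1b3, a sodium pump subunit (r = 0.937), and Tubb4b, a tubulin (r = 0.907). Insr was most like Igfbp3 (r = 0.923), Cds2, an enzyme of phospholipid synthesis (r = 0.911), and Eya3, a phosphatase and transcription co-factor (r = 0.906). Each value is a description over 8 libraries that share their scaling, picked as the highest of many. YT-ECKO 4 was the highest library for Insr, Igfbp3, Cds2 and Eya3, and WT 2 was the lowest for Insr, Igfbp3 and Eya3.

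The wider pathway was read from 83 genes in 7 lists, of which 82 were in the tables and 49 were tested. Limma called 0 of the 49, with 3 at an unadjusted p under 0.05 (5.47% of all tested genes). The difference was above 0 for 27 and below 0 for 22, with a median of 0.05, beside -0.09 for all tested genes. The groups did not overlap for 3 of them, Sos1, Sos2 and Rheb (3.4% of all tested genes), which were also the 3 with an unadjusted p under 0.05. Sos1 was tested only through its WT values, which leaves 2 of each count.

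Of the receptor adaptors, which link the receptors to their kinases, 13 of 17 in the tables were tested, 7 above and 6 below 0. Sos1, an exchange factor that activates RAS, had 0, 0, 0 and 1.2 scaled reads in YT-ECKO libraries 1 to 4, against 403, 425, 264 and 461 in WT libraries 1 to 4. It was at or under the limit of detection in every YT-ECKO library and passed the filter through WT alone. A gene that passes in that way has to differ, so its p is not given. The fitted size depends on how values near 0 are treated, and lay between -9.03 and -0.81 (log2) over the alternatives.

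Sos2, its paralog, was singled out after its values had been seen. It had 471, 413, 294 and 673 scaled reads in YT-ECKO libraries 1 to 4, against 98.2, 41.6, 9.5 and 149 in WT libraries 1 to 4. The lowest YT-ECKO library was above the highest WT library, the opposite order to Sos1, with a log2 difference of 1.56 ± 0.56 (SE) and a limma adjusted p of 0.735. No source used here says how reads that match several genes were counted, and whether Sos1 and Sos2 share any was not tested. Gnb2l1, a scaffold protein and the most abundant adaptor in scaled reads, had overlapping groups and a log2 difference of -0.19. The insulin receptor substrates Irs2 and Irs4 were at 0 in all 8 libraries, and Irs1 had 1.2 scaled reads in YT-ECKO 4 and 0 in the others.

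Of the PI3K, AKT, mTOR and FOXO list, 21 of 25 genes were tested, 11 above and 10 below 0, with a median of 0.03. Rheb, the GTPase that activates mTORC1, had 75.5, 283, 71.4 and 210 scaled reads in YT-ECKO libraries 1 to 4, against 489, 364, 572 and 648 in WT libraries 1 to 4. All YT-ECKO libraries were below all WT libraries, with a log2 difference of -1.22 ± 0.56 (SE), an unadjusted p of 0.0377 and a limma adjusted p of 0.882. Gsk3b, a kinase inhibited by AKT and the most abundant of this list in scaled reads, had a log2 difference of 0.42 and overlapping groups. The FOXO factor Foxo1, which AKT keeps out of the nucleus, was chosen after its values had been seen and differed by 0.16, and Foxo3 was at 0 in all 8 libraries.

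The MAP kinase list had all 10 genes tested, 4 above and 6 below 0, with a median of -0.08 and no gene past an unadjusted p of 0.05. Its gene with the smallest p and the highest mean was Mapk3, the kinase ERK1, which differed by 0.28 (limma adjusted p = 0.990).

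Among the proteases that release IGFs from binding proteins and the inhibitors of those proteases, 3 of 12 genes were tested, all above 0 and none past the test. Adamts1, a secreted metalloprotease, differed by 0.52 ± 0.48 (log2, SE), and Ctsd, a lysosomal protease, by 0.07 ± 0.41. Pappa and Pappa2, genes of proteases that cleave IGF-binding proteins, and Stc2, that of an inhibitor of both, were at 0 in all 8 libraries.

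Of the remaining family genes, only Igflr1, a receptor for IGF-like proteins, was tested, with a log2 difference of 0.06 that turned negative under several alternatives. Igfbp6, Igfals, Insrr and Ins2 were at 0 in all 8 libraries. None of the 3 IGF2 mRNA-binding protein genes reached the minimum for testing. H19, the noncoding RNA beside Igf2 that is expressed from the maternal allele, had 773, 661, 1213 and 547 scaled reads in YT-ECKO libraries 1 to 4, against 491, 232, 1002 and 127 in WT libraries 1 to 4. The 3 lowest libraries were WT and the highest was YT-ECKO, with WT 3 alone inside the YT-ECKO range, and H19 had a fitted log2 difference of 0.83 ± 0.54 (SE), for which limma gave an adjusted p of 0.980. That of Igf2 had the opposite sign, and neither passed the test.

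Each interval gives the range of sizes compatible with the values of that gene. It does not give the size that the adjusted test could have called. The 95% interval of Yap1 was -3.46 to -1.32 (log2), yet its limma adjusted p was 0.175, above the threshold. For Igfbp4 and Igfbp7, the best measured of the 10, the 95% interval reached 0.49 and 0.50 to either side on the log2 scale, and for Igf1, Igf2 and Igfbp2 between 1.27 and 1.47. A p that missed the threshold therefore leaves differences of up to 1.82 times the WT level for Igfbp4 and up to 2.76 times for Insr within the intervals. For Igfbp7 the interval reached down to 0.56 times the WT level.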

How the data were processed

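RNA was extracted with Trizol and 500 ng per library went into a Lexogen Quant-Seq kit, per the labels' protocols. Bowtie2, edgeR and the mm10 build are named in the submitters' processing notes; versions, counting tool, annotation and strand setting are not given in sources used here. For each library the authors deposited gene symbols with log2 values, none below 0. From the values, these were read as log2 of reads scaled to a common library size: among values under 12 scaled reads, 89.6% to 100% lay within 0.1 of a whole multiple of the library's step, which gave the implied reads.

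The planned test was changed to fit log2 values. Limma 3.58.1 (R 4.3.3; trended, robust moderation, no covariate) was run on log2(scaled reads + 128) for 8706 genes reaching 10 scaled reads in 4 or more libraries, adjusted by Benjamini-Hochberg over all of them; fold changes of low genes are understated on this scale. Procedures were tested on simulated data. Single values were compared by exact two-sided permutation tests (SciPy 1.17.1). The floor of 3 reads covers counting error only.

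The 10 members and the gene lists were chosen with earlier results of these data known. Named are the members, Yap1, Wwtr1, the genes of each pathway list with the smallest p and the highest mean, the 2 most abundant genes of each marker list (those of the microglia and macrophage list are not reported here), and the 3 genes most correlated with the member of highest mean and the member of smallest p. Exon lengths and positions come from GENCODE M21 (96.5% of tested genes had an exon length). Alternatives covered the pseudocount, scaling, filter, covariates for marker lists and Xist, voom, a replicate block, each library left out, and, added after seeing the data, the Rn45s share. Deviations of same-numbered libraries from their group means correlated by -0.04 to 0.08, so the numbers were not taken to pair the libraries.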

Additional observations from a re-analysis of the deposited data

Results flagged for a closer look

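Igfbp5 stood out in 1 library of each group. In YT-ECKO 3 it had 218 scaled reads while the other 3 YT-ECKO libraries were at 0. In WT 2 it had 41.5 scaled reads, apart from 5.0 in WT 4 and 0 in WT 1 and WT 3. Both values lay far from the others of their group by Dixon's test, applied to the 10 genes in each group (20 tests), where chance gives about 1 in 20. A gene detected in a single library meets that criterion by construction, and no cause was tested.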

How the results depend on the processing

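Of 512 values recomputed under 26 alternatives, 464 kept their direction and their side of the threshold, 36 changed sign and 12 lost the call, all of these for Wwtr1. None of the 10 IGF genes was called under any alternative, the lowest adjusted p being 0.694. The 3 genes called over all tested genes became 0 with a pseudocount of 1, with log2 values as deposited, with no filter, with voom, and within each set of 4 libraries by Rn45s share, and 5 with Xist as a covariate; with 1 library left out they numbered 0 to 6, with 0 without WT 2, 1 without WT 1 and 6 without YT-ECKO 3. With the replicate number as a block 5 were called, 0 of them among the 10, and libraries of the same number were not shown to be paired. The number of the 10 without overlap, 0 as reported, was 1 (Igfbp4) with library totals or median ratios, 0 to 1 with a library left out, 3 within the lower and 5 within the higher Rn45s share, where 35.0% and 33.3% of all tested genes did not overlap. None of the differences that changed sign was called, and the cause was not tested. Igf1 was -0.17 with the fibroblast and -0.27 with the microglia covariate, and -0.12 to 0.49 with a library at 0 left out. Leaving out a library that detected Igf1 took it below the minimum for testing, so those fits give no value. Igf2 was 0.19 with the microglia covariate, and -1.27 to -0.078 with a library left out. Igf1r was 0.050 with the mural covariate, 0.22 with Xist, 0.072 with voom, 0.023 with the Rn45s share as a covariate, 0.30 within the lower share, and -0.24 to 0.14 with a library left out. Within the higher share Igfbp2 was 0.78, and within the lower share Igfbp3 was -0.12 and Igfbp7 0.13. Igflr1 was -1.07 and -0.21 with pseudocounts of 1 and 16, -1.05 as deposited, -0.10, -0.59 and -0.090 with the fibroblast, microglia and Xist covariates, -1.64 with voom, -0.11 within the higher share, and -0.32 to 0.29 with a library left out. Ctsd was -0.12 with upper quartiles, -0.31 within the lower share, and -0.039 to 0.21 with a library left out; Gnb2l1 was 0.10 with the microglia covariate and -0.37 to 0.034 with a library left out. Scaling by upper quartiles moved the median of all genes to -0.22 and that of the tested IGF genes to 0.06. Igf1 was at 0 in the 4 shallowest libraries. Igfbp2 was at 0 only in YT-ECKO 2 and YT-ECKO 3, which were not among them. Igfbp5 was at 0 in shallower and deeper libraries alike, and the part of depth was not tested.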

Other observations

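Mir483 and Igf2os, annotated within Igf2, were also listed in the tables, and Igf2os was at 0 in all 8 libraries. Igf2bp1, the gene of a protein that binds IGF2 mRNA, was above 2 scaled reads in YT-ECKO 3 and WT 1 alone. Igfbpl1, a gene related to the binding proteins, had 70.9 scaled reads in YT-ECKO 2 and 300 in YT-ECKO 4, and 0 in all 4 WT libraries. It did not reach the minimum for testing and was singled out after its values had been seen.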
